A study of Homo sapiens with 2 samples.

Results

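Cells carrying the hashtag pairs HTO2+HTO8 and HTO2+HTO9 differed widely in CXCL10, and this spread was used to divide them. A cell belonged to a pair when its 2 highest hashtags of HTO2 to HTO9 were that pair, the second of them reached 20 counts and was at least 4 times the one ranked next, and the cell had at least 500 genes with no more than 20% of its UMIs (counted molecules) mitochondrial. The rule kept 185 of 366 barcodes for HTO2+HTO8 and 241 of 560 for HTO2+HTO9, which made 426 of the 9083 barcodes in the library. Members of each group were chosen by their CXCL10 UMIs per 10000 gene UMIs: within a pair the cells were ranked by this score and split into 3 groups of near-equal size, named CXCL10-low, CXCL10-middle and CXCL10-high here. The low and high groups held 61 cells each in HTO2+HTO8 and 80 cells each in HTO2+HTO9. The CXCL10 difference itself comes from this choice and is no finding; all other genes were then compared between the high and the low cells.

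The library pooled 13 tumours of OVCAR5, an established line of human ovarian carcinoma that carried a reporter of interferon gamma (IFNg) sensing, grown in NSG-B2m-/- mice. NSG mice lack T, B and NK cells, and B2m-/- mice lack the light chain of MHC class I. Per the description of the pool, 3 tumours were injected with TNFa at 10 ng/ml and taken at 6 h, 2 with IFNg at 100 ng/ml plus TNFa at 10 ng/ml and taken at 6 h, 2 with IFNg at 100 ng/ml for 24 h and 1 for 48 h, and the unexposed tumours were 2 at 6 h, 2 at 24 h and 1 at 48 h. The treatment fields of the gene expression and hashtag libraries each name a single condition, which is at odds with that description. The sorted cells were CFP+ bystander tumour cells, and the labels do not tie a hashtag pair to a tumour, so no pair is assigned a treatment or a time. All cells went through 1 library without replicates: no test between conditions was possible, the 2 pairs are given side by side, and the 95% intervals cover counting error only. The pool had 13 tumours, and 13 hashtag pairs held 110 to 507 passing cells each. Whether each pair stands for 1 tumour was not tested. From the labels, a spread within 1 tumour cannot be told apart from a spread between tumours that shared a pair.

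CXCL10 is a secreted chemokine that draws activated T cells and NK cells through the receptor CXCR3, which it shares with CXCL9 and CXCL11. IFNg acts through the Janus kinases JAK1 and JAK2, which leads to the induction of IRF1 and of a second set of genes that includes the GTPases of the GBP family and the MHC class II transactivator CIITA. TNFa acts through NF-kB, whose targets include ICAM1, SOD2 and its own inhibitors NFKBIA and TNFAIP3. CXCL10 is a textbook gene of both routes, with binding elements for interferon-activated factors and for NF-kB in its promoter.

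CXCL10 (ENSG00000169245) lies on the minus strand at chr4:76021117-76023497 (GENCODE 29 on GRCh38). The stretch before its start is shown because it holds both kinds of element; RefSeq's GRCh38.p14 start is the reference for positions. Capitals mark matches to the motifs GAAANNGAAA (an interferon-stimulated response element, ISRE) and GGGANNNNCC (a long form of the NF-kB kappaB motif), searched on both strands, and the letters run 5′ to 3′ in the direction of the gene. The ISRE match began 221 bases before the start and the kappaB matches 177 and 122 bases before it.
CXCL10, 250 bases before the start (chr4:76023498-76023747, minus strand): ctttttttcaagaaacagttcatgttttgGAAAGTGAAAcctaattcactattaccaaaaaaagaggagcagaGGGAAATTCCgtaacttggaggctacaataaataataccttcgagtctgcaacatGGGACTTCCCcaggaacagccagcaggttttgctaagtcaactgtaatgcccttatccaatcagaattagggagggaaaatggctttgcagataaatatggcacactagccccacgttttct

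Some of the genes described in the results are shown by one or more windows of 30 bases, to compare the elements they hold with those of CXCL10. In these lines capitals mark matches to the ISRE motif, to the STAT motif TTCNNNGAA (GAS) or to GGAANNTCC, a short kappaB form that can overlap the long one. A match is a run of letters and not a shown binding site. Sequences are RefSeq's, on GRCh38.p14.
CXCL9 ISRE (chr4:76007661-76007690, minus strand): ccatttatgtGAAATGGAAAtaaaaacatg
CXCL11 GAS (chr4:76036291-76036320, minus strand): ttaaatggatTTCTAGGAAaagctacctta
CXCL11 kappaB (chr4:76036126-76036155, minus strand): actcaaagagGGAAATTCCtgtgccataaa
SOCS1 ISRE (chr16:11256298-11256327, minus strand): cgccaccgcgGAAAGAGAAAccaaaagtgg
IRF1 GAS (chr5:132490878-132490907, minus strand): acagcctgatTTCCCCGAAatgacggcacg
CD274 ISRE (chr9:5450324-5450353, plus strand): gactgacatgTTTCACTTTCTGTTTCattt
CD274 GAS (chr9:5450407-5450436, plus strand): ttccgccgatTTCACCGAAggtcaggaaag
GBP1 ISRE (chr1:89065316-89065345, minus strand): aacgaagtacTTTCAGTTTCatattactct
ICAM1 GAS (chr19:10271035-10271064, plus strand): ggcgcgaggtTTCCGGGAAagcagcaccgc
ICAM1 kappaB (chr19:10270924-10270953, plus strand): gctttagcttGGAAATTCCggagctgaagc
TNFAIP3 kappaB (chr6:137867182-137867211, plus strand): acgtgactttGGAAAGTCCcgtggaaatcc

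CXCL10 spanned the range from 0 to over 200 UMIs per 10000 within a pair. In HTO2+HTO8 the low cells had 0 to 41.0 CXCL10 UMIs per 10000 (median 16.5) and the high cells 78.5 to 203 (median 113). In HTO2+HTO9 the low cells had 0 to 29.3 (median 7.48) and the high cells 83.9 to 241 (median 114). The scores had no gap at the borders: the last low cell stood at 41.0 and the next middle cell at 41.1 in HTO2+HTO8, with 77.8 and 78.5 at the upper border. In HTO2+HTO9 the borders lay between 29.3 and 30.2 and between 83.4 and 83.9. CXCL10 was at 0 in 4 cells of HTO2+HTO8 (2.16%) and in 21 cells of HTO2+HTO9 (8.71%), and 14 and 35 cells were under 5 UMIs per 10000.

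**Figure D1:**
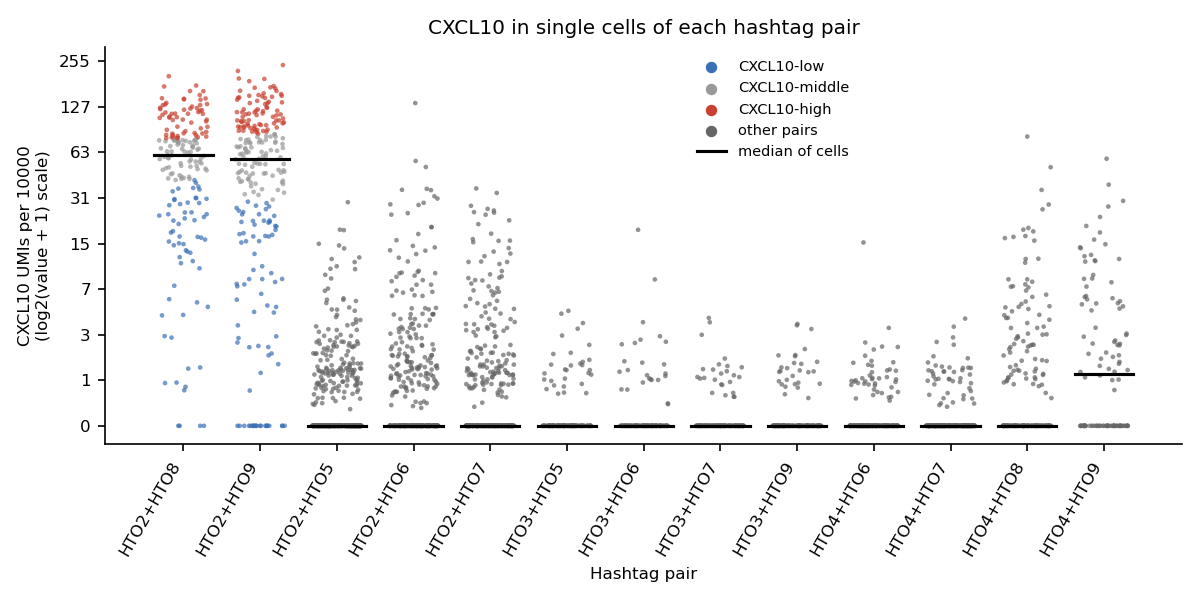
CXCL10 UMIs per 10000 in single cells (log2(value + 1) scale) for each of the 13 hashtag pairs; colours give the low, middle and high groups of the 2 pairs described and black bars the median of each pair. Cells of HTO2+HTO8 and HTO2+HTO9 spread continuously from 0 to 203 and 241, and in 10 of the other 11 pairs the median cell was at 0.

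The CXCL10 levels of the groups are set by the ranking and are given as a description beside the other pairs. Summed over cells, CXCL10 reached 1792, 6033 and 11163 UMIs per 1000000 UMIs of all other genes (CPM) in the low, middle and high cells of HTO2+HTO8 and 986, 5810 and 12202 CPM in those of HTO2+HTO9. The other 11 pairs, made of 110 to 507 cells each, stood between 18.9 CPM (HTO4+HTO7) and 517 CPM (HTO4+HTO9). At least 1 CXCL10 UMI was found in 93.4% of the low cells of HTO2+HTO8 and 73.8% of those of HTO2+HTO9. HTO4+HTO7 had a UMI in 16.5% of its cells (Clopper-Pearson interval 12.4% to 21.4%) at a median depth of 9237 UMIs per cell, beside 9512 and 9229 UMIs in the low cells of HTO2+HTO8 and HTO2+HTO9. It was the lowest share of the other 11 pairs, which reached 54.5% in HTO4+HTO9. Free RNA in the droplets was not estimated, so it cannot be told apart from low expression in these shares.

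Median depth and hashtag counts were lower in the high than in the low cells of HTO2+HTO8 and higher in those of HTO2+HTO9. The median mitochondrial share was lower in the high cells of both pairs. The median cell had 9512 UMIs and 2924 genes among the low and 8500 UMIs and 2674 genes among the high cells of HTO2+HTO8, against 9229 UMIs and 2918 genes and 10336 UMIs and 2920 genes in HTO2+HTO9. Mitochondrial UMIs made up a median of 16.4% in low and 14.97% in high cells of HTO2+HTO8, and of 15.3% and 13.4% in HTO2+HTO9. The median HTO8 count was 506 in low and 429 in high cells of HTO2+HTO8, and the median HTO9 count 441 and 619.5 in HTO2+HTO9. For HTO2 the medians were 699 and 641 in HTO2+HTO8 and 423 and 553 in HTO2+HTO9. The median ratio of the second hashtag to the one ranked next was 32.5 and 24.1 in HTO2+HTO8 and 18.9 and 26.2 in HTO2+HTO9. Ranking the cells within groups of like depth, or of like mitochondrial share, gave 108 and 115 higher genes and 76 and 84 lower genes, beside the 104 and 66 described next. The genes were not all the same: 90 and 93 of the 104 higher genes and 47 and 52 of the 66 lower genes were called again. The carcinoma label held for the markers EPCAM, KRT8, KRT18 and WFDC2, with 126 UMIs or more in each group, but CDH1, MUC16 and PAX8 had at most 5 UMIs in any group. Marker lists for fibroblasts, endothelial cells, macrophages, T or NK cells, B cells and neutrophils had no member at the minimum for comparison. Of the 10 macrophage or monocyte markers, 4 to 7 were at 0 and their sum was 34.2 CPM in low and 44.3 CPM in high cells of HTO2+HTO8 and 53.4 and 79.7 CPM in HTO2+HTO9, led by CD68. CSF1R, C1QA, FCGR3A and MARCO were at 0 in both the low and the high cells of each pair. The hosts were mice and the counts are of human genes. These lists therefore cannot show whether mouse host cells were absent. The part of non-tumour cells in the results was not tested.

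Across all genes, 104 were higher and 66 lower in the CXCL10-high cells of both pairs. A gene was measured when it had 50 UMIs or more over the low and high cells in each pair, which 3235 genes did, and it was called when its CPM differed 1.5-fold or more in the same direction in both pairs. Higher genes were 3.21% and lower genes 2.04% of those measured. At a 2-fold difference 24 genes were higher and 11 lower. The median log2 ratio of high to low cells over all measured genes was -0.05. Scaling by the median of ratios in place of the UMI total moved that median to 0.01 and gave 130 higher and 52 lower genes, so the share of calls that were higher was 61.2% or 71.4% depending on the scaling. The middle cells lay between the low and high cells for 95 of the 104 higher genes in HTO2+HTO8 and 94 in HTO2+HTO9. For the lower genes that held for 51 of the 66 in each pair. A call requires a gap between low and high cells, which by itself makes a middle value between them likely. The share over all measured genes was not computed, so these counts are a description.

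**Figure D2:**
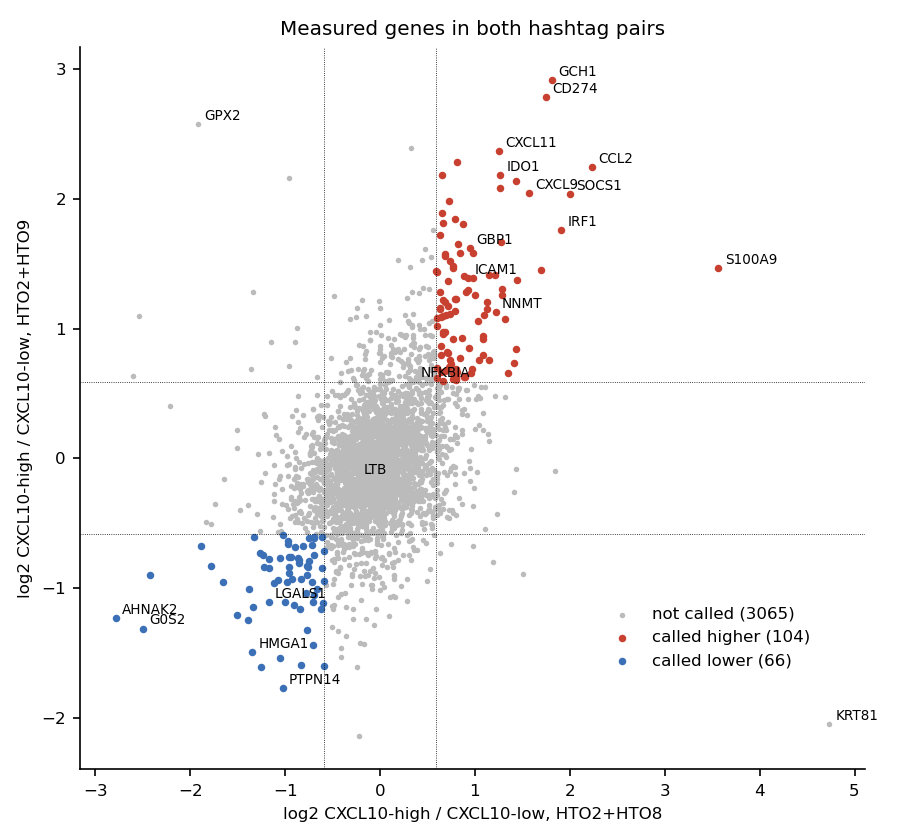
Log2 ratio of CXCL10-high to CXCL10-low cells in HTO2+HTO8 (x axis) and HTO2+HTO9 (y axis) for the 3235 measured genes; dotted lines mark 1.5-fold, red points the 104 genes higher and blue points the 66 genes lower in both pairs. GCH1, CD274, CCL2, SOCS1 and IRF1 stand at the upper right, AHNAK2, G0S2, HMGA1 and PTPN14 at the lower left, and LTB near the centre.

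The CXCR3 ligands CXCL9 and CXCL11 and the chemokines CCL2 and CX3CL1 were higher in CXCL10-high cells of both pairs. CXCL9 (ENSG00000138755 at chr4:76001275-76007488) went from a median of 0.632 UMIs per 10000 in the low cells to 6.83 in the high cells of HTO2+HTO8, with single cells between 0 and 24.3 and between 0 and 52.4. It was 2.98-fold higher in sum (2.58 to 3.44; 418 against 1243 CPM) and 4.12-fold higher in HTO2+HTO9 (3.40 to 5.01; 167 against 686 CPM). The cells overlapped, since 15 of the 61 low cells of HTO2+HTO8 were above the median of the high cells. CXCL11, the remaining CXCR3 ligand, was 2.38-fold higher in HTO2+HTO8 (2.18 to 2.59; 1219 against 2901 CPM) and 5.15-fold higher in HTO2+HTO9 (4.59 to 5.80; 436 against 2249 CPM). In single cells all 80 high cells of HTO2+HTO9 were above the median of the low cells, and 1 low cell was above the median of the high cells. Both measured CXCR3 ligands were thus called, with a median log2 ratio of 1.81.

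CCL2, which draws monocytes, had the largest smaller-of-the-2-pairs ratio of all measured genes. In HTO2+HTO8 the median low cell had 0 and the median high cell 2.12 UMIs per 10000, with highest cells of 7.68 and 35.6. In HTO2+HTO9 the medians were 0.780 and 6.11, with highest cells of 30.2 and 123. The sums differed 4.71-fold (3.49 to 6.44) and 4.73-fold (4.06 to 5.54). CX3CL1, a membrane-bound chemokine, was 2.39-fold and 4.22-fold higher. CCL5 was at 3.60-fold (2.27 to 5.90) in HTO2+HTO8 and 0.934-fold (0.610 to 1.43) in HTO2+HTO9, and was not called. The value in HTO2+HTO8 rests on few cells. A single cell held 84.8% of the CCL5 UMIs in its high cells and another 44% of those in its low cells. Without the top cell of each group the log2 ratio of CCL5 was 0.0004 in HTO2+HTO8 and -0.012 in HTO2+HTO9. The neutrophil-drawing chemokines CXCL8 and CXCL1 and the chemokine CCL20 were below the minimum for comparison, with ratios of 2.28 and 3.58, 1.84 and 3.05, and 4.56 and 5.47. Of 16 other chemokines listed, 3 were measured and 2 of them called, with a median log2 ratio of 1.67.

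IRF1 had the largest ratio of the 10 measured STAT and IRF factors. Single low cells of HTO2+HTO8 had 0 to 31.8 IRF1 UMIs per 10000 (median 2.98), middle cells 0 to 44.9 (median 15.1) and high cells 0.496 to 64.3 (median 24.1). In HTO2+HTO9 the low cells had 0 to 44.3 (median 3.68), the middle cells 0 to 88.0 (median 16.7) and the high cells 0 to 64.8 (median 29.97). Nearly all high cells exceeded the median low cell, 59 of 61 and 78 of 80, while 1 and 8 low cells exceeded the median high cell. In sum IRF1 was 3.75-fold higher in HTO2+HTO8 (3.36 to 4.20; 638, 1649 and 2396 CPM in low, middle and high cells) and 3.38-fold higher in HTO2+HTO9 (3.10 to 3.68; 858, 1923 and 2897 CPM).

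Of the 10 measured STAT and IRF factors, STAT3, BATF2 and ETV7 were called higher beside IRF1 and none lower, with a median log2 ratio of 0.58. IRF8 was below the minimum for comparison, with 3 UMIs in low and 7 in high cells of HTO2+HTO8 and 2 and 13 in HTO2+HTO9. BATF2, a partner of IRF1, was 3.24-fold and 2.73-fold higher. The IFNg receptor chains were not called: IFNGR1 had ratios of 2.00 and 1.17 and IFNGR2 of 0.894 and 0.850. JAK2 was called, at 1.57-fold (0.951 to 2.63) and 4.53-fold (2.63 to 8.30), although the first interval includes 1; it was the 1 called of 6 measured receptors and kinases (median 0.61). Of the 5 measured negative regulators of interferon signalling only SOCS1, an inhibitor of the Janus kinases, was called: it was 4.01-fold (2.55 to 6.53) and 4.09-fold (2.79 to 6.16) higher and was found in 19 of 61 low and 37 of 61 high cells of HTO2+HTO8 (list median 0.65). SOCS3, below the minimum, had ratios of 0.694 and 1.58.

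**Figure D3:**
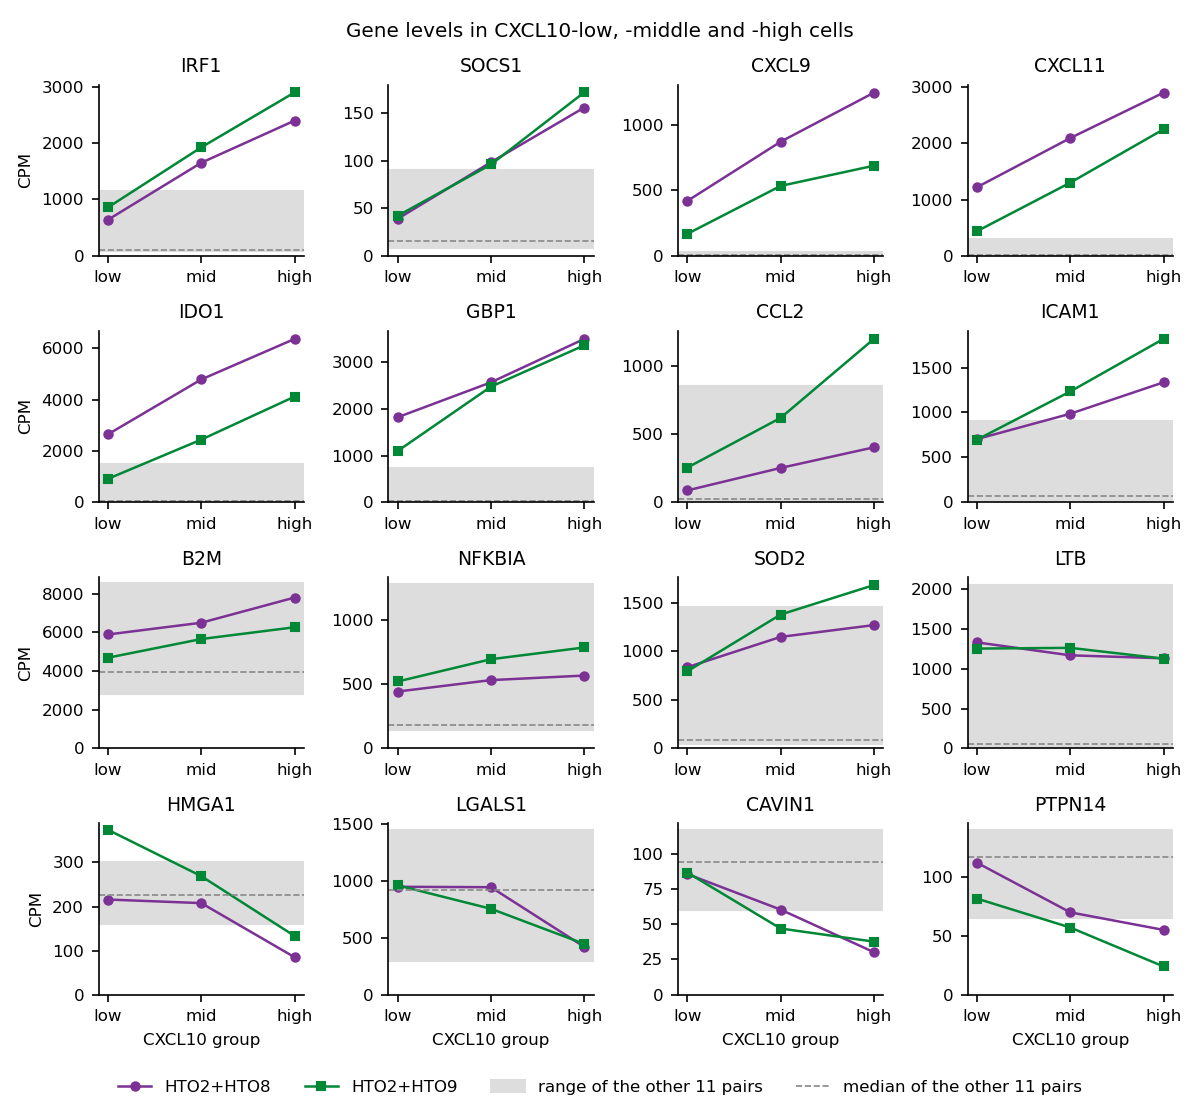
CPM of 16 genes in the CXCL10-low, CXCL10-middle and CXCL10-high cells of HTO2+HTO8 (circles) and HTO2+HTO9 (squares), with the range (grey) and median (dashed) of the other 11 pairs; each vertical axis starts at 0. IRF1, SOCS1 and the chemokines climb through the groups, B2M and NFKBIA less so, LTB stays between 1126 and 1330 CPM, and the genes of the bottom row descend.

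Of 17 measured effector genes of IFNg, 6 were called higher. IDO1, which breaks down tryptophan, had medians of 22.6, 47.0 and 64.2 UMIs per 10000 in the low, middle and high cells of HTO2+HTO8 and of 1.74, 23.4 and 41.5 in HTO2+HTO9. Its sums were 2.41-fold (2.27 to 2.55) and 4.54-fold (4.19 to 4.92) higher, reaching 6367 and 4117 CPM. Of the high cells, 59 of 61 and 80 of 80 were above the median low cell. GCH1, the first enzyme of tetrahydrobiopterin synthesis, was 3.51-fold and 7.54-fold higher at low levels (20.2 against 70.8 and 17.8 against 134 CPM). CD274, the gene of PD-L1 (a ligand that restrains T cells), was 3.35-fold (1.90 to 6.20) and 6.88-fold (3.85 to 13.4) higher and was found in 13 of 61 low and 30 of 61 high cells of HTO2+HTO8 and in 9 and 46 of 80 in HTO2+HTO9. Of 17 measured effectors, IDO1, GCH1, CFB, TNFSF10, TNFSF13B and SECTM1 were called higher and none lower (median log2 ratio 0.64). APOL1, APOL3 and TYMP had ratios below 1 in HTO2+HTO8 and above 1 in HTO2+HTO9. CD274 was the 1 called of 5 measured checkpoint ligands (median 0.51).

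Of 7 measured interferon-induced GTPases 5 were called higher, all guanylate-binding proteins (GBPs), which attack pathogens inside cells; the list's median log2 ratio was 1.12. GBP7, with ratios of 1.43 and 2.06, and RNF213, which is no GBP, with 1.06 and 1.58, were not called. GBP1 had medians of 18.2, 26.2 and 33.2 UMIs per 10000 in low, middle and high cells of HTO2+HTO8 and of 6.79, 23.8 and 34.7 in HTO2+HTO9. In sum it was 1.92-fold (1.79 to 2.07) and 3.07-fold (2.84 to 3.32) higher. The high cells of the pairs ended near each other, at 3505 and 3367 CPM, while the low cells started at 1822 and 1097 CPM. GBP2, GBP3, GBP4 and GBP5 had ratios between 1.55 and 1.98 in HTO2+HTO8 and between 2.43 and 3.49 in HTO2+HTO9. These genes are near copies of each other, so reads they share may be divided among them.

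Genes shared with type I interferon were mostly above 1 in ratio but seldom past 1.5-fold in both pairs. Of 45 measured members 7 were called higher (ISG20, IFIT2, IFI6, OASL, EPSTI1, TRIM22 and MX2) and none lower, 44 had a mean log2 ratio above 0, and the median was 0.58. ISG15, a ubiquitin-like modifier, stood at 3412 against 5226 CPM (1.53-fold) in HTO2+HTO8 and 2621 against 3922 CPM (1.497-fold, just under the limit) in HTO2+HTO9. MX1, a GTPase against viruses, had ratios of 1.38 and 2.00, and IFIT3, an antiviral protein, of 1.36 and 2.89.

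Most MHC class II genes were called and most class I genes were not; the difference between the classes was not tested. Of 8 measured MHC class II genes 7 were called higher, with a median log2 ratio of 1.07: HLA-DRA was 1.76-fold and 3.14-fold higher, CIITA, the master switch of the class, 1.98-fold (1.38 to 2.87) and 2.62-fold (1.67 to 4.22), and CTSS, a protease that trims the class II chaperone, 2.42-fold and 3.18-fold. CD74, that chaperone, was the member not called, at 1.39-fold and 1.72-fold. HLA genes are near copies of each other, so their single values are uncertain. Of 14 measured class I and peptide supply genes TAP1 alone was called, at 1.64-fold and 2.26-fold, with a median log2 ratio of 0.41. B2M, the class I light chain, stood at 5890 against 7798 CPM (1.32-fold) and 4687 against 6262 CPM (1.34-fold).

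Of the NF-kB lists, some members were called higher and most were not. ICAM1, which binds leukocyte integrins, had medians of 6.13, 8.99 and 12.1 UMIs per 10000 in low, middle and high cells of HTO2+HTO8 and of 5.44, 10.6 and 16.3 in HTO2+HTO9, and its sums were 1.90-fold (1.69 to 2.14) and 2.62-fold (2.37 to 2.89) higher. VCAM1, another adhesion ligand, was 2.13-fold and 1.92-fold higher, which made 2 of 5 measured adhesion ligands (median log2 ratio 0.46). Of 4 measured NF-kB subunits RELA, NFKB1 and RELB were called (median 0.80), at ratios between 1.54 and 2.55, and NFKB2 had ratios of 0.760 and 0.927. Of 9 measured NF-kB inhibitors and feedback genes TNFAIP3 was called, at 2.43-fold (1.45 to 4.18) and 2.47-fold (1.54 to 4.07), and the list median was 0.30. NFKBIA, which encodes the inhibitor that holds NF-kB in the cytoplasm, was not called, at 1.28-fold (1.09 to 1.51) and 1.51-fold (1.33 to 1.71). Survival and defence genes had 5 of 17 called higher (SOD2, C3, SLPI, CEBPD and TNFAIP8; median 0.62), with the superoxide dismutase SOD2 at 1.52-fold and 2.12-fold.

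LTB, the TNF superfamily member lymphotoxin beta, did not follow CXCL10. Its level was 1330, 1167 and 1130 CPM in the low, middle and high cells of HTO2+HTO8 and 1252, 1261 and 1126 CPM in HTO2+HTO9, ratios of 0.850 (0.766 to 0.943) and 0.899 (0.822 to 0.983). Among the other 11 pairs LTB had a median of 50.4 CPM and a highest level of 2047 CPM, so both low and high cells held LTB above that median. Of 4 measured TNF superfamily ligands and cytokines IL32, a cytokine, was called higher (1.66-fold and 2.87-fold) and IL18, an inflammasome-processed cytokine, lower (0.526-fold and 0.524-fold).

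Other lists held few or no called genes. CASP1, the inflammasome protease, and NINJ1, which ruptures the plasma membrane in lytic death, were the 2 called of 5 measured death genes (median log2 ratio 0.64); NINJ1 was 2.19-fold and 2.30-fold higher. CD40 was the 1 called of 6 TNF receptors and adaptors (median 0.03). No gene was called among 14 constitutive proteasome genes (median 0.08), 10 heat shock genes (-0.06), 10 unfolded protein and integrated stress genes (-0.08), 7 hypoxia and glycolysis genes (-0.09), 10 immediate early genes (0.15), 3 p53 targets (0.21), 6 mesenchymal and matrix genes (-0.18) and 3 cholesterol synthesis genes (-0.25). In those lists the members named for the largest and smallest mean log2 ratio were PSMA2 (0.35) and PSMB6 (-0.38), DNAJA1 (0.46) and HSPA1A (-0.56), ATF3 (0.51) and SEL1L (-0.47), EGLN3 (0.35) and PKM (-0.39), JUNB (0.56) and FOSL1 (-1.04), PMAIP1 (0.53) and BAX (-0.40), FN1 (0.33) and LAMB3 (-0.60), and FDPS (0.11) and SQLE (-0.76). Of 9 measured epithelial genes KRT7, a keratin, was lower (median -0.24), and of 8 S100 and metallothionein genes S100A9 was higher and MT1E lower (median -0.24). The secretory list had 2 measured genes, AGR2 (mean log2 ratio 1.36) and MUC5AC (-0.03), with medians of -0.51 in HTO2+HTO8 and 1.83 in HTO2+HTO9.

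**Figure D4:**
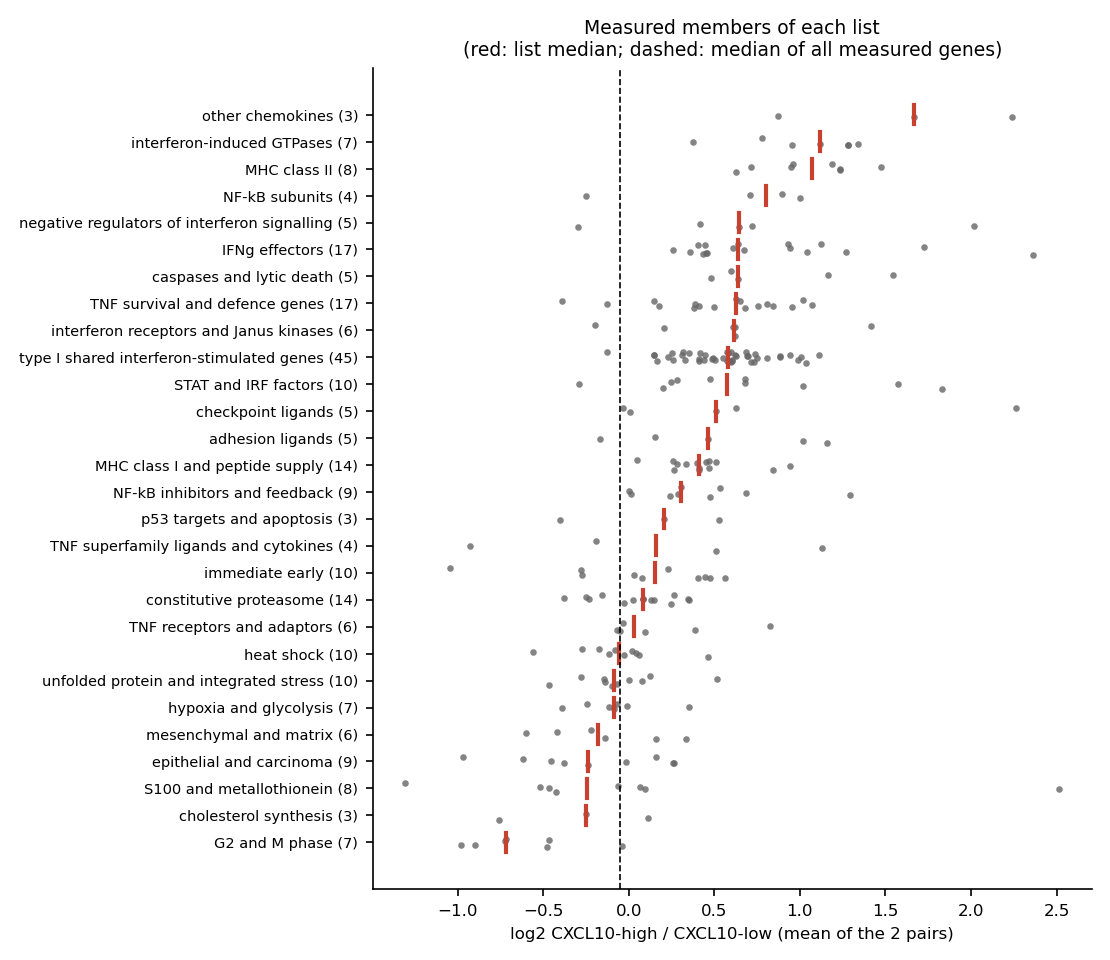
Log2 ratio of CXCL10-high to CXCL10-low cells, as the mean of the 2 pairs, for each measured member (grey points) of the lists with 3 or more measured members (number in brackets); red bars are list medians and the dashed line the median of all measured genes (-0.05). The medians run from 1.67 for other chemokines and 1.12 for interferon-induced GTPases to -0.25 for cholesterol synthesis and -0.72 for G2 and M phase.

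The summed G2 and M phase genes were at 1337 CPM in low and 446 CPM in high cells of HTO2+HTO8 (0.334-fold, 0.289 to 0.384) but at 1169 and 1416 CPM in HTO2+HTO9 (1.21-fold, 1.11 to 1.32); the difference between the pairs was not tested. The summed S phase genes were lower in the high than in the low cells of both pairs. They were at 444 and 220 CPM in HTO2+HTO8 (0.494-fold, 0.397 to 0.612) and 742 and 550 CPM in HTO2+HTO9 (0.741-fold, 0.656 to 0.838). The middle cells had 442 CPM in HTO2+HTO8 and 446 CPM in HTO2+HTO9, the latter below both the low and the high cells. These intervals do not cover spread between cells: a single cell held 70.8% of the TOP2A UMIs in the high cells of HTO2+HTO8. Of the 7 measured G2 and M phase genes, TPX2 and PTTG1 had ratios below 1 in both pairs. Cells with 3 or more UMIs of G2 and M or S phase genes per 1000 made up 9.84% of the low and 3.28% of the high cells in HTO2+HTO8 and 12.5% and 13.8% in HTO2+HTO9. No G2 and M phase gene was called in both pairs, and TOP2A, a DNA topoisomerase of dividing cells, and CKS2, a cyclin-dependent kinase partner, had the smallest (-0.98) and largest (-0.04) mean log2 ratio. No S phase gene of the 25 listed reached the minimum for comparison. Without the cycling cells 101 genes were higher and 68 lower, among them 80 of the 104 and 42 of the 66.

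Further genes were among the largest ratios outside the lists. SLC39A8, a zinc and manganese importer, was 2.71-fold and 4.40-fold higher, and MIR155HG, the host transcript of miR-155, was 2.72-fold and 2.58-fold higher; the mature miRNA was not measured. The next 4 genes, NNMT to LIFR, were chosen after their values were seen. NNMT, a nicotinamide methyltransferase, had medians of 10.7 and 34.8 UMIs per 10000 in low and high cells of HTO2+HTO8 and of 10.2 and 30.2 in HTO2+HTO9, and sums 2.33-fold and 2.18-fold higher. RIPK2, a kinase of the NOD receptors, was 2.32-fold and 2.66-fold higher, the kinase LYN 2.44-fold and 2.39-fold, and LIFR, the receptor of leukaemia inhibitory factor, 2.22-fold and 2.66-fold. S100A9, a calcium-binding protein of inflammation, had the largest ratio of the called genes in HTO2+HTO8, 11.8-fold, from 3 low and 8 high cells with a UMI in HTO2+HTO8. A single cell held 96.3% of its UMIs in the high cells of HTO2+HTO8 and another 97.4% of those in HTO2+HTO9. It lost its call without the top cell of each group, with a log2 ratio of -1.83 in HTO2+HTO9, and so did ABHD16A among the higher genes and TINAGL1, PDLIM7, VCL and AP2B1 among the lower ones.

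The 66 genes lower in CXCL10-high cells had few members in the lists, and most named ones come from the ranking. LGALS1, which encodes the sugar-binding protein galectin 1, was the most abundant of the named ones: low cells of HTO2+HTO8 had 0 to 40.2 UMIs per 10000 (median 3.67) and high cells 0 to 28.3 (median 1.34), and in HTO2+HTO9 the ranges were 0 to 88.3 (median 3.34) and 0 to 29.6 (median 1.73). The sums were 951, 947 and 422 CPM in low, middle and high cells of HTO2+HTO8 (0.443-fold, 0.380 to 0.516) and 963, 757 and 447 CPM in HTO2+HTO9 (0.464-fold, 0.410 to 0.525). The groups overlapped: 15 of 61 and 28 of 80 high cells were above the median low cell. HMGA1, a chromatin protein of fast-growing cells, was at 216, 208 and 85.0 CPM (0.394-fold, 0.278 to 0.550) and at 374, 269 and 133 CPM (0.356-fold, 0.285 to 0.443). G0S2, an inhibitor of fat breakdown, was at 0.177-fold and 0.403-fold, and AHNAK2, a large scaffold protein, at 0.146-fold and 0.427-fold, on 10.6 and 23.9 CPM in the high cells.

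CAVIN1, a coat protein of caveolae, the small pits of the plasma membrane, was at 85.4, 60.3 and 30.1 CPM in HTO2+HTO8 (0.352-fold, 0.192 to 0.616) and 86.5, 46.9 and 37.6 CPM in HTO2+HTO9 (0.434-fold, 0.277 to 0.667), and CAVIN3, its partner, at 0.397-fold and 0.451-fold. CAV1, their membrane protein, was at 492, 365 and 312 CPM and at 519, 353 and 258 CPM. PTPN14, a phosphatase that restrains the coactivator YAP, was at 0.491-fold and 0.294-fold, and SLC9A3R2, a scaffold of membrane transporters, at 0.418-fold and 0.328-fold. CAV1 and the genes that follow were chosen after their values were seen, and no list of this kind had been drawn up: the actin-linked genes FLNA (0.552-fold and 0.571-fold), FSCN1 (0.318-fold and 0.518-fold), PLEC (0.535-fold and 0.458-fold), TPM4 (0.583-fold and 0.488-fold) and LASP1 (0.429-fold and 0.559-fold), and WWTR1, which encodes the coactivator TAZ (0.594-fold and 0.579-fold). Of the remaining genes named by rank, CTNNAL1 was at 0.483-fold and 0.345-fold, OSBPL8 at 0.501-fold and 0.466-fold and the histone gene HIST1H4C, 1 of many near copies, at 0.385-fold and 0.498-fold.

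The other 11 pairs place the low and high cells in the library. The 104 higher genes, chosen on the low and high cells but not on other pairs, summed to 25960, 38264 and 51558 CPM in low, middle and high cells of HTO2+HTO8 and to 18403, 34204 and 48140 CPM in HTO2+HTO9, against 3933 to 19153 CPM in the other pairs. So the low cells already stood near or above the highest other pair, HTO4+HTO9. Gene by gene, the low cells were above the median of the other pairs for 99 and 100 of the 104 genes (95.2% and 96.2%). They were above every other pair for 43 and 26 (41.3% and 25.0%). Over all 3235 measured genes the low cells were above that median for 44.7% and 51.8% and above every other pair for 15.5% and 14.5%. The 66 lower genes summed to 7573, 5839 and 3817 CPM and to 8415, 6011 and 4282 CPM, against 6302 to 9344 CPM elsewhere: the low cells lay within the range of the other pairs, and the high cells below all of them. For 53 and 52 of the 66 genes the high cells of HTO2+HTO8 and HTO2+HTO9 were below every other pair; for the low cells that held for 7 and 5. Over all measured genes the high cells were below every other pair for 30.02% and 24.9%, and the low cells for 17.8% and 13.1%. The 66 genes were chosen as low in these same high cells, so their counts are a description of that choice.

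Cells with almost no CXCL10 did not stand apart from the other pairs in every IFNg target. The 14 cells of HTO2+HTO8 under 5 CXCL10 UMIs per 10000 had 494 CPM of IRF1, 966 of GBP1 and 867 of IDO1, and the 35 such cells of HTO2+HTO9 had 512, 418 and 84.8 CPM. The other 11 pairs reached from 86.6 to 1153 CPM for IRF1, from 17.7 to 735 CPM for GBP1 and from 13.99 to 1487 CPM for IDO1, so all of these values lay within that range except GBP1 in HTO2+HTO8. They were all above the medians of the other 11 pairs, which were 105 CPM for IRF1, 32.2 for GBP1 and 33.2 for IDO1. IDO1 in the cells of HTO2+HTO9 was below its level in HTO2+HTO6 (121 CPM) and HTO2+HTO7 (124 CPM). LTB was at 1019 and 1190 CPM in the cells of HTO2+HTO8 and HTO2+HTO9 under 5 CXCL10 UMIs per 10000. Their median depths were 9284 and 9218 UMIs. Without these cells, groups made anew from the rest gave 61 higher and 34 lower genes; this alternative was added after the scores were seen.

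Over single cells the genes that varied most like CXCL10 were IDO1, GBP1, CXCL11, IRF1, ICAM1, GBP4, GBP2, IL32, GBP3 and TNFSF10, ranked by the smaller of the 2 pairs' Pearson correlations of log-transformed UMIs per 10000. IDO1 had r of 0.69 in the 185 cells of HTO2+HTO8 and 0.73 in the 241 of HTO2+HTO9, CXCL11 0.65 and 0.80, IRF1 0.55 and 0.64, and ICAM1 0.53 and 0.59. LTB had r of 0.04 and 0.00. The median over the 4382 genes ranked was -0.02 and -0.01. These cells share a library, their depth enters both axes, and abundant genes can reach higher values, so the figures are a description.

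Interferon and NF-kB motifs were counted in the promoter windows of the called genes. RefSeq windows of 300 bases (250 before and 50 after the start) matched 74 of the 104 higher genes, 49 of the 66 lower genes and 2627 of the 3235 measured genes by symbol. The ISRE motif was in 31.1% of the higher genes' windows, 4.08% of the lower genes', 4.80% of all measured genes' and 3.65% of those of all 27305 symbols in the table, each taken with its first window. The GAS motif was in 16.2%, none, 6.05% and 7.88%, and the short kappaB form in 18.9%, 4.08%, 4.91% and 4.59%. The long kappaB form is common, at 52.7%, 42.9%, 32.4% and 25.1%. TGANTCA, the AP-1 motif, was in 12.2%, none, 4.64% and 7.76%, and GGAATG, the TEAD motif, in 12.2%, 6.12%, 11.2% and 14.05%. ISRE and the short kappaB form stood together, as they do before CXCL10, in 4 of the 74 higher genes' windows (GBP4, CFB, TAP1 and CD274), or 5.41%, against 0.381% of the measured genes'. Both strands were searched, the 2 kappaB forms can overlap, and no test was made; absence of a match says only that the letters are not in the window.

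**Figure D5:**
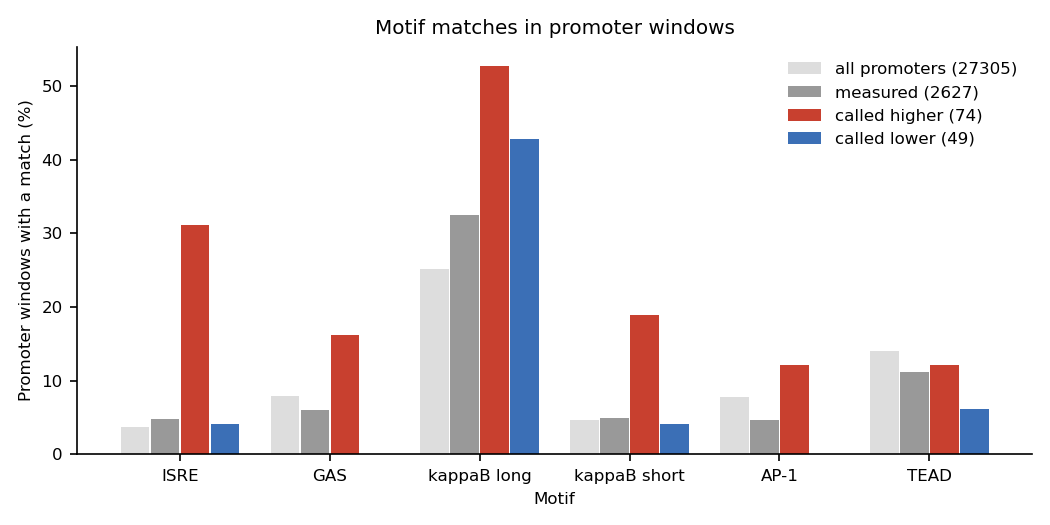
Percent of 300-base promoter windows that hold each motif, for all symbols in the RefSeq table (27305, first window each), the measured genes (2627), and the genes higher (74) and lower (49) in CXCL10-high cells; bars start at 0 and have no error bars. The higher genes stand at 31.1% for the ISRE and 18.9% for the short kappaB form, against 4.80% and 4.91% of the measured genes.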

How the data were processed

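Values are the UMI counts deposited by the authors, whole numbers without normalisation, for 36601 genes and 10 hashtags over 9083 barcodes (64826985 gene UMIs); columns of other samples numbered 0. The file headers name Cell Ranger 5.0.1 and the submitters' processing notes Cell Ranger 2.1.1 with GRCh38; for the annotation, a name was not given in the sources used here.

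UMIs were summed over the cells of a group and scaled to 1000000 without CXCL10 in the total (CPM). Ratios have exact conditional binomial 95% intervals, shares Clopper-Pearson intervals. A group at 0 was set to 3 counts. Barcodes in which another hashtag came close to the pair were left out as multiplets; doublets within a pair cannot be seen. Members and lists were chosen with earlier results of these data known. Named were fixed genes by role, the 12 highest and 12 lowest by the smaller of the 2 pairs' log2 ratios, called list members (or a list's extremes) and the 10 best correlated genes. Some genes that this rule names are not reported here. The comparison was run on simulated data, with Poisson counts at the cells' depths and groups drawn at random. That simulation had no further spread between cells and no ranking by a gene. It therefore cannot show how the calls behave where single cells hold most UMIs of a gene. Alternatives (20 planned, 2 added after seeing the data) changed cell filters, hashtag rule, depth, grouping, scaling, the UMI minimum and the fold. Versions: scipy 1.17.1, numpy 2.4.6 and pandas 2.3.3 for values and matplotlib 3.10.9 for figures, under Python 3.11.15.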

Additional observations from a re-analysis of the deposited data

Results flagged for a closer look

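In 17 measured genes the pairs went opposite ways by 1.5-fold or more each, and the difference was not tested. The gap between the pairs' log2 ratios was 6.78 for KRT81, 4.49 for GPX2, 3.64 for UBE2C, 3.24 for TOP2A, 3.12 for PSCA, 2.61 for MUC5AC, 2.40 for MRPS31, 2.05 for SLC12A2, 2.05 for KPNA2, 1.99 for SLC5A3, 1.88 for HIST1H1B, 1.80 for LAD1, 1.67 for ELF3, 1.65 for RUFY1, 1.41 for ARL3, 1.36 for SUDS3 and 1.29 for TMED2. KRT81, a keratin, had 0 UMIs in the low cells of HTO2+HTO8, so its ratio there was computed against 3 counts over the group and its gap is a lower bound; 1 cell held 100% of its UMIs in the high cells of HTO2+HTO8 and 97.4% of those in HTO2+HTO9. UBE2C, TOP2A and KPNA2, genes of dividing cells, were lower in the high cells of HTO2+HTO8 and higher in those of HTO2+HTO9, as were the secretory or epithelial genes GPX2, PSCA, MUC5AC, LAD1 and ELF3. Some of these rest on few cells. In the high cells of HTO2+HTO8 a single cell held 90.9% of the UMIs of UBE2C, 70.8% of TOP2A, 95.2% of HIST1H1B and 14.7% of KPNA2. In those of HTO2+HTO9 a single cell held 65.0% of GPX2. Without the top cell of each group the ratios of these genes kept their directions.

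Hashtags HTO1 and HTO10, which the rule does not use, had 16 and 51 counts over all member cells, at most 2 in any cell.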

How the results depend on the processing

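No paired analysis was possible because all cells come from 1 library and no test was made. Direction was read from the mean log2 ratio of the pairs used. Of the 104 higher and 66 lower genes, those still measured kept it in all 20 planned and 2 added alternatives except S100A9 and HIST1H1D, the latter with the mean over cells. Changes of the fold or the UMI minimum reuse the same ratios, and a call requires the same direction in each single pair. Direction was therefore fixed in advance in those alternatives. A mean can also hide 1 pair: without top cells S100A9 counted as kept, with -1.83 in HTO2+HTO9. The counts of higher and lower genes moved by over 1.5 times as follows: 48 and 20 with cells thinned to 4000 UMIs, 22 and 1 with 1000 genes and 10% mitochondrial UMIs (16 high cells, 236 genes measured), 63 and 16 with a minimum of 100 UMIs, 419 and 971 with no minimum, 24 and 11 at 2-fold, 254 and 305 in HTO2+HTO8 alone, 381 and 420 in HTO2+HTO9 alone, and 61 and 34 without cells under 5 CXCL10 UMIs per 10000 (added). A limit of 50% mitochondrial UMIs gave 158 higher genes and a minimum of 30 UMIs 147 lower ones. Fewer cells, UMIs or genes, or a single pair, enter most of these by construction. For the rest the cause was not tested. Counts that moved less need not hold the same genes. With raw CXCL10 UMIs as the score 71 genes were higher and 45 lower, and 55 and 26 of them were among the 104 and 66.

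S100A9 reversed to a mean log2 ratio of -0.053 with 4 groups per pair, -0.58 and -0.40 with cells ranked within like depth and like mitochondrial share, and -0.38 without cells under 5. The G2 and M phase median reversed to 0.59 with raw CXCL10 UMIs as the score, 0.035 without the deepest 10% of cells and 0.34 in HTO2+HTO9 alone. The secretory and mucin median (0.66, 2 genes measured) reversed to -0.35 without the deepest cells and -0.51 in HTO2+HTO8 alone. Over 113 single genes and list medians, 1792 alternative values moved by less than the counting interval (single genes) or the SD between the 2 pairs (lists), 507 by more, and 9 reversed. A reversal was counted only for called genes and for list medians of 1.5-fold or more. Other changes of sign are among the 1792 and 507: the TNF superfamily and cytokine median (0.16) ran from -0.28 to 0.67. Single genes cannot move when only the fold or the UMI minimum changes, so the 1792 do not measure stability.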
